A study of Mus musculus with 18 samples.

Results

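The chemokine ligand genes of tumors grown from K7M2 cells were examined. All rows of the expression matrix whose symbol begins with Ccl, Cxcl or Xcl and a digit were taken, except Cxcl12, which gave 35 of 20878 genes. Of these, 22 were Ccl genes, 12 were Cxcl genes and 1 was an Xcl gene. K7M2 is an osteosarcoma line of Balb/c mice, and every graft carried an shRNA, either against Atrx (ATRXKD) or a control (ATRXCT). The grafts grew in Balb/c mice, which have an intact immune system and share the background of the line, or in NSG mice (NOD.Cg-Prkdc scid Il2rg tm1Wjl/SzJ), which lack T, B and NK cells. RNA came from 4 ATRXCT and 4 ATRXKD tumors in Balb/c mice and from 5 ATRXCT and 5 ATRXKD tumors in NSG mice, 1 tumor per mouse, and the hosts were female and 6 to 8 weeks old according to the methods. The 2 hosts differ in strain as well as in immune cells. Mice were kept in whole cages of 1 treatment, so host strain, immune status and cage cannot be told apart here. The same holds for knock-down and cage within a host. A bulk tumor mixes grafted and host cells, so fewer cells of a type and less RNA per cell cannot be told apart either.

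Chemokines are small secreted proteins that steer leukocytes along concentration gradients through G protein-coupled receptors. CC ligands such as Ccl2 mainly draw monocytes, macrophages, eosinophils and mast cells, ELR-type CXC ligands such as Cxcl1 draw neutrophils through Cxcr2, and the ligands of Cxcr3, Cxcl9, Cxcl10 and Cxcl11, draw activated T and NK cells. The latter are induced by interferons, and Xcl1 is made by NK cells and CD8 T cells and draws cross-presenting dendritic cells through Xcr1.

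Expression is given as FPKM, fragments per kilobase of transcript normalised to the mapped fragments, which the authors deposited as log2 (FPKM + 1). Between 16108 and 18212 genes were above 0 in a tumor, and the depth estimated from the steps between low values was 15150000 to 25250000 fragments. The libraries differed in how expression moved with transcript length, by a slope of -0.146 to 0.211 log2 units per doubling of length. Tumors 43, 45, 56 and 60 in Balb/c mice and tumors 3 and 27 in NSG mice had slopes above 0.1. Atrx itself stood at 10.3, 13.4, 20.7 and 26.0 FPKM in the Balb/c ATRXCT tumors and at 7.88, 9.11, 17.3 and 21.5 FPKM in the Balb/c ATRXKD tumors, and the groups overlapped (log2 difference -0.34, SE 0.36, limma adjusted p = 0.999). In NSG mice it stood at 11.6 to 24.4 FPKM against 8.42 to 16.4 FPKM (log2 difference -0.74, SE 0.22, limma adjusted p = 0.061), with overlap as well. In Balb/c mice the 4 tumors with slopes above 0.1, from both groups, held Atrx at 17.3 to 26.0 FPKM. The other 4 held it at 7.88 to 13.4 FPKM, and the part of the slope in the overlap was not tested. The paper reports that a western blot showed ATRX to be lost in each knock-down cell line. The Y-linked gene Eif2s3y was listed at 0 in all 8 Balb/c tumors and at 5.64 to 14.4 FPKM in all 10 NSG tumors, which goes against the stated sex of the NSG hosts, and whether this bears on any host difference was not tested. Of 8 osteoblast genes checked against the origin of the line, Runx2 was at 3.54 to 11.1 FPKM, Col1a1 at 56.6 to 499 FPKM, Col1a2 at 218 to 594 FPKM and Sparc at 155 to 342 FPKM. The genes of mature osteoblasts Sp7, Ibsp, Bglap and Alpl were at or near 0, at no more than 0.662 FPKM.

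The promoters of members on which the comparisons of hosts turned are shown first, as the 250 bases before the RefSeq start site in build GRCm38.p6, read 5′ to 3′ on the strand of the gene. RefSeq entries were matched for 24 of the 35 members. Cxcl9 (chr5:92328080-92328329, minus strand) and Cxcl10 (chr5:92348890-92349139, minus strand) are shown because these neighbours differed in the comparison of hosts, and Xcl1 (chr1:164935523-164935772, minus strand) and Cxcl14 (chr13:56296552-56296801, minus strand) because they differed in opposite directions. Capitals mark matches on either strand to the interferon-stimulated response element, searched as 2 copies of GAAA with any 2 bases between, and to the interferon-gamma activated site, searched as TTC and GAA with any 3 bases between.
Cxcl9: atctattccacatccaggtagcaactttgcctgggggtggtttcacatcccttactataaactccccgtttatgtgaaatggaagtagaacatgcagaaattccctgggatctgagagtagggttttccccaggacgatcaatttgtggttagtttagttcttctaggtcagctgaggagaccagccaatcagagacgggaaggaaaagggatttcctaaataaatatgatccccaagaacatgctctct
Cxcl10: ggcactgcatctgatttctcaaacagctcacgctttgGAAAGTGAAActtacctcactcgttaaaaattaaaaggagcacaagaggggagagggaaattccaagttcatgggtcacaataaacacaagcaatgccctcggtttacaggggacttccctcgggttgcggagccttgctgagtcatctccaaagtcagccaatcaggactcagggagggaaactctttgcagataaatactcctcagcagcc
Xcl1: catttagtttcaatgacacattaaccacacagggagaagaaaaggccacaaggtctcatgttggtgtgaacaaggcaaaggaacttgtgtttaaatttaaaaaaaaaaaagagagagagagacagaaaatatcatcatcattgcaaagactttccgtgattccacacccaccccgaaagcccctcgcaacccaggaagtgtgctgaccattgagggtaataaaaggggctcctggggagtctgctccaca
Cxcl14: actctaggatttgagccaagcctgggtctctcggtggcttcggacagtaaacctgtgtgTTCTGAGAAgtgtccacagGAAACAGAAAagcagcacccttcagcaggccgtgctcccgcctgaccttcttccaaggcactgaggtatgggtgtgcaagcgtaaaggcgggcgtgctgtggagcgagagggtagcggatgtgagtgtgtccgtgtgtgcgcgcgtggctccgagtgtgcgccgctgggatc
Within these letters the first motif was present in Cxcl10, from -213 to -204 of the start site, and in Cxcl14, from -172 to -163, and the second in Cxcl14, from -191 to -183. Of all 27025 promoters of the same length, 3.04% held the first motif and 7.18% the second, against 3 (Ccl19, Cxcl10 and Cxcl14) and 2 (Ccl17 and Cxcl14) of the 24 member promoters. A match is only a match of letters, and the window before Cxcl9 and Xcl1 held none. Looser forms of the 2 motifs were not searched, so a window without a match may still hold a response element.

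Another motif, the kappaB-type site, searched on both strands as GGG and TTTCC with any 2 bases between, was present in 5 of the 24 member promoters (Cxcl1, Cxcl2, Cxcl3, Ccl9 and Ccl20), or 20.8%, and in 1.4% of all promoters. It is printed for the neutrophil attractants Cxcl1, Cxcl2 and Cxcl3, neighbours on chromosome 5, because the same letters recur in all 3 neighbours. Each line gives 60 bases, all on the plus strand, with 1 match in capitals, for Cxcl1 at chr5:90891149-90891208, for Cxcl2 at chr5:90903777-90903836 and for Cxcl3 at chr5:90786003-90786062.
Cxcl1: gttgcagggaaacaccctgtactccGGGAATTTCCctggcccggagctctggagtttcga
Cxcl2: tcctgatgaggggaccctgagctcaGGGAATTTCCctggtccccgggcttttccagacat
Cxcl3: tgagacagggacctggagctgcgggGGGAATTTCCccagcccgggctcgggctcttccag
The capitals spell the same 10 bases in the 3 genes and lie from -71 to -62 of the start site in Cxcl1, from -97 to -88 in Cxcl2 and from -73 to -64 in Cxcl3. Cxcl1 and Cxcl2 each hold 1 more match within the same window.

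A few CC ligands made up most of the chemokine RNA. Over the 18 tumors the mean level was highest for Ccl8, with 870 FPKM, followed by Ccl6 with 544 FPKM and Ccl2 with 364 FPKM. Ccl9 had a mean of 282 FPKM, Ccl12 of 277 FPKM and Ccl7 of 268 FPKM. Together these 6 genes held on average 84.2% of the summed FPKM of the members, from 74.5% to 88.6% in single tumors. A further 10 members had means of 10 to 100 FPKM, 9 of 1 to 10 FPKM, 3 of 0.1 to 1 FPKM and 7 of less than 0.1 FPKM, and 25 members were above 0 in all 18 tumors. The sum over the members ranged from 1797 FPKM in Balb/c ATRXCT tumor 45 to 4550 FPKM in NSG ATRXCT tumor 4. FPKM is a level per length, but the libraries still differed in how levels moved with transcript length. The order of genes of unlike length, such as Ccl8 with 511 nt and Ccl9 with 3008 nt, is therefore approximate. Neighbours in the order such as Ccl9, Ccl12 and Ccl7 also overlapped across the tumors.

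**Figure D1:**
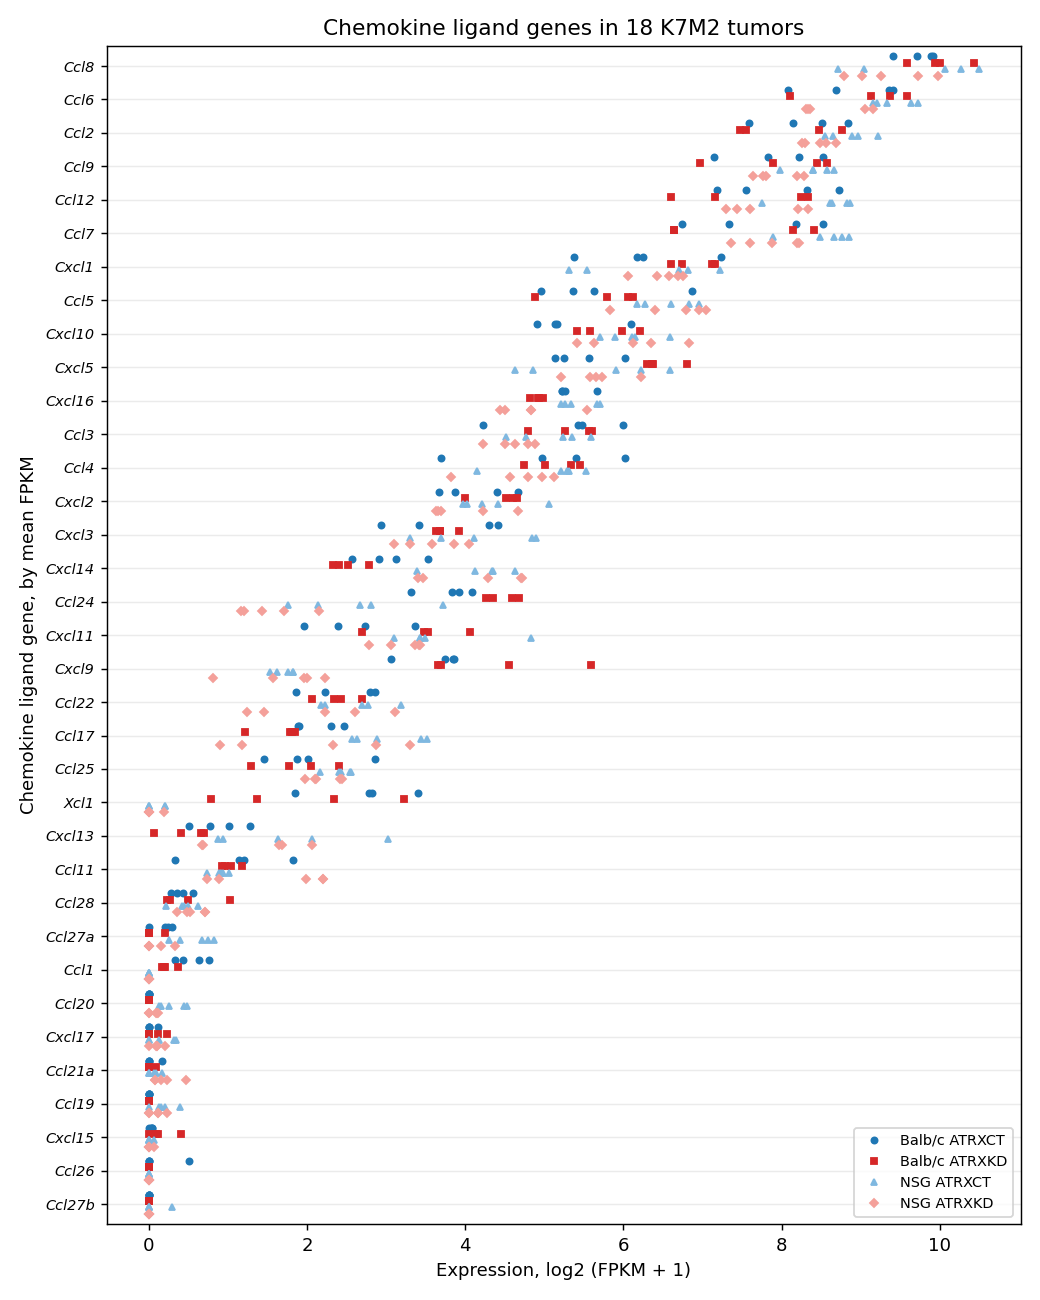
Expression of the 35 chemokine ligand genes (rows, ordered by mean FPKM) as log2 (FPKM + 1) on the x axis, with 1 point per tumor and 1 colour and shape per group. Ccl8, at a mean of 870 FPKM, leads, and the points of Cxcl9 and Xcl1 separate by host.

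The members lie mostly in clusters, with 12 on chromosome 11 and 11 on chromosome 5 in the deposited mm10 annotation. The stretch from Ccl2 to Ccl1 (chr11:82035577-82179812) holds 6 members and gave 57.6% of the summed member FPKM, with means from 0.143 FPKM for Ccl1 to 870 FPKM for Ccl8. The stretch from Ccl5 to Ccl4 (chr11:83525778-83664683) holds 5 members and gave 31.4%, with means of 32.7 to 544 FPKM. On chromosome 5, Cxcl5, Cxcl3, Cxcl15, Cxcl1 and Cxcl2 (chr5:90759298-90905938) gave 6.06%, and Cxcl9, Cxcl10 and Cxcl11 (chr5:92321331-92363296) gave 2.55%. Thus neighbouring members could differ strongly in level. The members had a median transcript length of 955 nt, against 2488 nt over all genes.

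The comparison of hosts asks which ligands differ with where the same line grew. Among ATRXCT tumors, Cxcl9, which draws T and NK cells, and Xcl1, which those cells make, were higher and Cxcl14, a ligand of epithelia and fibroblasts, was lower in Balb/c than in NSG mice. Among ATRXKD tumors, the same 3 members differed in the same direction, and Ccl24 (eotaxin-2), which draws eosinophils through Ccr3, was higher in Balb/c as well. A gene was called at a limma adjusted p under 0.05 over all genes tested with a fold of at least 2 on the log2 (FPKM + 1) scale. Of the 29 members tested in ATRXCT tumors 3 were called, against 1.43% of all genes tested (2 higher, against 0.883%, and 1 lower, against 0.546%), and of the 26 tested in ATRXKD tumors 4 were called, against 1.39% (3 higher, against 1.12%, and 1 lower, against 0.266%). The 2 comparisons share no tumor, and 3 members and 0.905% of the 14468 genes tested in both were called the same way in both. The median log2 difference, Balb/c minus NSG, was -0.29 over the members and 0.0084 over all genes in ATRXCT tumors, and 0.12 and -0.016 in ATRXKD tumors. At an unadjusted p under 0.05, there were 13 of the 29 members in ATRXCT tumors, against 19.3% of all genes, 9 of them lower, against 7.87%, and 4 higher, against 11.5%. In ATRXKD tumors there were 10 of the 26, against 16.4%, with 3 lower, against 6.5%, and 7 higher, against 9.93%. The groups did not overlap for 5 of the 29 members in ATRXCT tumors, against 7.57% of all genes tested, with 2 lower (2.85%) and 3 higher (4.72%). These were Ccl17 (log2 difference -0.87, SE 0.23, limma adjusted p = 0.0781) and Ccl20, lower, and Ccl1, Cxcl9 and Xcl1, higher. In ATRXKD tumors the groups did not overlap for 5 of the 26, against 8.13%, with 1 lower (3.05%) and 4 higher (5.08%). Xcl1 in both comparisons, and Ccl1 and Ccl20 in ATRXCT tumors, entered the test only through the host where they were high. Their places in the counts of members called or not overlapping thus add no support.

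**Figure D2:**
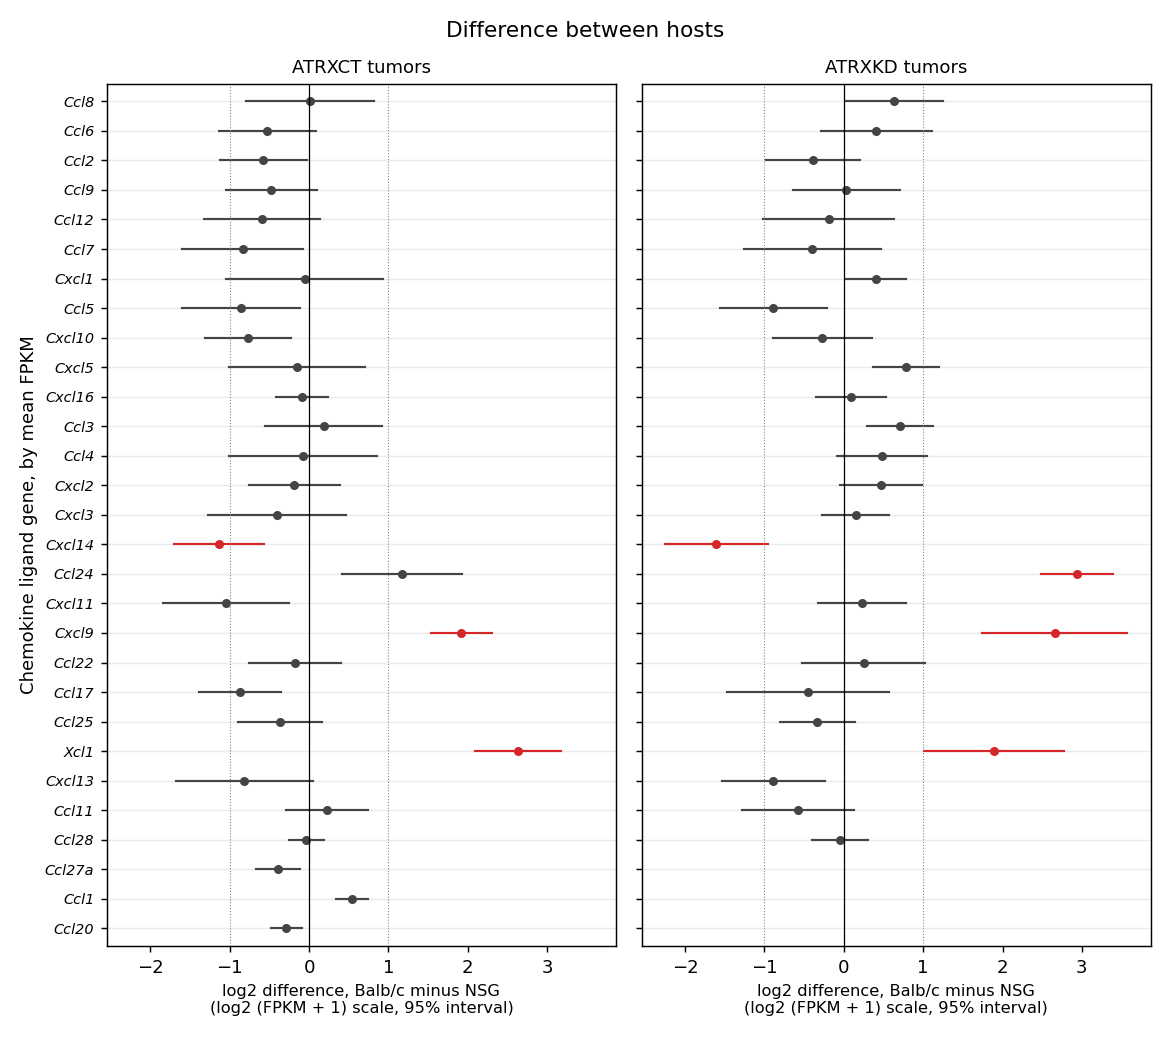
Log2 difference between hosts, Balb/c minus NSG, on the log2 (FPKM + 1) scale, for the members tested in ATRXCT tumors (left) and in ATRXKD tumors (right). Points are limma estimates and lines 95% intervals, red marks called members (3 at left, 4 at right), and dotted lines mark a fold of 2.

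Cxcl9 stood at 7.38, 12.4, 13.4 and 13.5 FPKM in the Balb/c ATRXCT tumors and at 1.88, 2.07, 2.39, 2.54 and 2.54 FPKM in the NSG ATRXCT tumors. The means were 11.7 ± 2.90 FPKM (SD, n = 4) and 2.28 ± 0.296 FPKM (SD, n = 5), a log2 difference of 1.92 (SE 0.17, limma adjusted p = 8.95e-05). In ATRXKD tumors it stood at 11.6, 11.9, 22.4 and 47.2 FPKM in Balb/c and at 0.763, 1.96, 2.90, 3.01 and 3.69 FPKM in NSG mice. All 8 Balb/c tumors were thus above all 10 NSG tumors, and tumor 56 held the highest value. The log2 difference in ATRXKD tumors was 2.66 (SE 0.41, limma adjusted p = 0.00497), and it was 2.25 to 2.89 when 1 tumor at a time was left out.

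The other ligands of Cxcr3 did not share this difference. Cxcl10 stood at 28.9, 34.0, 34.9 and 67.2 FPKM in Balb/c ATRXCT tumors and at 51.0, 58.7, 68.1, 69.7 and 95.2 FPKM in NSG ATRXCT tumors, so most Balb/c values lay below the NSG values (log2 difference -0.77, SE 0.25, limma adjusted p = 0.134). Without Balb/c ATRXCT tumor 44, the highest of its group, Cxcl10 was called lower in Balb/c (log2 difference -1.02, limma adjusted p = 0.014). In ATRXKD tumors Cxcl10 stood at 41.6 to 73.2 FPKM in Balb/c and at 41.6 to 113 FPKM in NSG mice (log2 difference -0.27, SE 0.28, limma adjusted p = 0.666). Cxcl11 gave log2 differences of -1.05 (SE 0.36, limma adjusted p = 0.16) and 0.23 (SE 0.25, limma adjusted p = 0.69). Overlap of its groups was seen in both comparisons, and 39.8% of its 75-nt windows also occur in Gm2673, so its level is uncertain. Cxcl10 and Cxcl11 also overlap Art3 on the opposite strand by position, and whether counting used strand is not given.

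Within a tumor, the ratio of Cxcl9 to Cxcl10 FPKM separated the hosts without overlap. It was 0.185 to 0.463 in Balb/c ATRXCT and 0.192 to 0.645 in Balb/c ATRXKD tumors, against 0.0267 to 0.0467 in NSG ATRXCT and 0.0183 to 0.0421 in NSG ATRXKD tumors. The exact two-sided permutation test of the log2 ratio gave p = 0.00794 in each comparison of hosts, the smallest that 126 arrangements allow. Between ATRXKD and ATRXCT tumors the same ratio gave exact permutation p = 0.543 in Balb/c and p = 0.881 in NSG mice. The ratio of Cxcl9 to Cxcl11 did not overlap between hosts either, at 1.13 to 4.65 in Balb/c and 0.0928 to 0.410 in NSG tumors (exact permutation p = 0.00794 in each comparison of hosts, among 12 tests of ratios made). Cxcl9 alone gave the same exact permutation p in both comparisons of hosts. Both ratios were formed with its values known, so their p-values add no independent support.

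Interferon gamma, a strong inducer of Cxcl9, differed between hosts as well. Ifng was at 0.619 to 1.89 FPKM in the 8 Balb/c tumors and listed at 0 in all NSG ATRXCT tumors, with at most 0.104 FPKM in an NSG ATRXKD tumor. Of the list of 12 inducers and members of the interferon-gamma pathway, 0 of 12 were called between ATRXCT tumors and 1, Ifng, between ATRXKD tumors (log2 difference 1.13, SE 0.14, limma adjusted p = 0.000989), while in ATRXCT tumors Ifng passed the adjusted threshold but not the fold (log2 difference 0.90, SE 0.10, limma adjusted p = 0.000424). Ifng entered both tests only through its level in Balb/c mice. The summed level of 9 T cell markers was 28.0 to 53.1 FPKM in Balb/c and 1.19 to 6.36 FPKM in NSG tumors, and that of 8 NK cell markers was 49.9 to 334 FPKM and 0.605 to 2.18 FPKM. Their part in the differences of Cxcl9 and Xcl1 was not tested.

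Xcl1 stood at 2.62, 5.89, 6.09 and 9.57 FPKM in Balb/c ATRXCT tumors, while in NSG ATRXCT tumors it was listed at 0 in 3 and at 0.153 and 0.157 FPKM in the others. In ATRXKD tumors it stood at 0.718, 1.58, 4.08 and 8.40 FPKM in Balb/c mice and was listed at 0 in 4 of 5 NSG tumors, with 0.140 FPKM in tumor 29. Again no NSG tumor reached the lowest Balb/c tumor, and the values above 0 in NSG mice correspond to about 1 estimated fragment each. The log2 difference was 2.63 (SE 0.25, limma adjusted p = 0.000108) in ATRXCT tumors and 1.89 (SE 0.40, limma adjusted p = 0.0272) in ATRXKD tumors, and Xcl1 entered these tests only through its level in Balb/c mice. The latter call was lost, at adjusted p = 0.0504 to 0.0719, when any 1 of the 5 NSG tumors or Balb/c tumor 59 was left out. Its receptor Xcr1 was at 0.814 to 1.52 FPKM in Balb/c and 0.500 to 0.983 FPKM in NSG tumors, with log2 differences of 0.35 (SE 0.13, limma adjusted p = 0.198) and 0.31 (SE 0.10, limma adjusted p = 0.15).

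Ccl24 stood at 18.2, 19.4, 23.0 and 24.7 FPKM in Balb/c ATRXKD tumors and at 1.25, 1.30, 1.70, 2.26 and 3.43 FPKM in NSG ATRXKD tumors, without overlap. The means were 21.3 ± 3.05 FPKM (SD, n = 4) and 1.99 ± 0.902 FPKM (SD, n = 5), a log2 difference of 2.94 (SE 0.21, limma adjusted p = 1.52e-05). In ATRXCT tumors it stood at 8.98, 13.3, 14.2 and 16.0 FPKM in Balb/c and at 2.39, 3.42, 5.34, 5.99 and 12.2 FPKM in NSG mice, where tumor 2 reached into the Balb/c range. The log2 difference of 1.17 (SE 0.34, limma adjusted p = 0.103) was not called, but without NSG tumor 2 it was 1.45 and called (limma adjusted p = 0.0175). Ccr3, the receptor of Ccl24 on eosinophils, was at 0.146 to 0.804 FPKM in Balb/c and 0.192 to 3.32 FPKM in NSG tumors and was not called, and the 6 eosinophil markers summed to 4.10 to 34.3 FPKM in Balb/c and 2.14 to 41.8 FPKM in NSG tumors. Epx, a defining granule protein, was at or near 0 in all 4 groups, at no more than 0.0197 FPKM. Ear1 was called lower in Balb/c than in NSG ATRXCT tumors, with 0 to 0.421 FPKM against 2.54 to 7.93 FPKM (log2 difference -2.34, SE 0.27, limma adjusted p = 0.000584). Thus Ccl24 separated the hosts in ATRXKD tumors, whereas its receptor and the summed eosinophil markers overlapped. Most of that sum was Ear2, at 15.5 to 33.6 FPKM in Balb/c and 1.57 to 29.8 FPKM in NSG ATRXKD tumors. The overlap of the sum therefore says little about eosinophils.

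Cxcl14 was the member called lower in Balb/c mice. It stood at 4.92, 6.50, 7.70 and 10.6 FPKM in Balb/c ATRXCT tumors and at 9.47, 16.4, 19.2, 19.4 and 23.7 FPKM in NSG ATRXCT tumors, with overlap of 1 tumor on each side. In ATRXKD tumors the values were 4.04, 4.29, 4.74 and 5.91 FPKM in Balb/c and 9.60, 10.1, 18.5, 25.2 and 25.3 FPKM in NSG mice, without overlap. The log2 difference was -1.13 (SE 0.26, limma adjusted p = 0.0417) in ATRXCT tumors and -1.61 (SE 0.29, limma adjusted p = 0.0123) in ATRXKD tumors. The former call was lost on leaving out Balb/c tumors 41, 43 or 45 or NSG tumors 1, 2, 3 or 4, with adjusted p from 0.0501 to 0.115. The 10 keratinocyte markers, listed because epithelium makes Cxcl14, summed to 2.18 to 95.4 FPKM in Balb/c and 1.87 to 19.6 FPKM in NSG tumors.

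**Figure D3:**
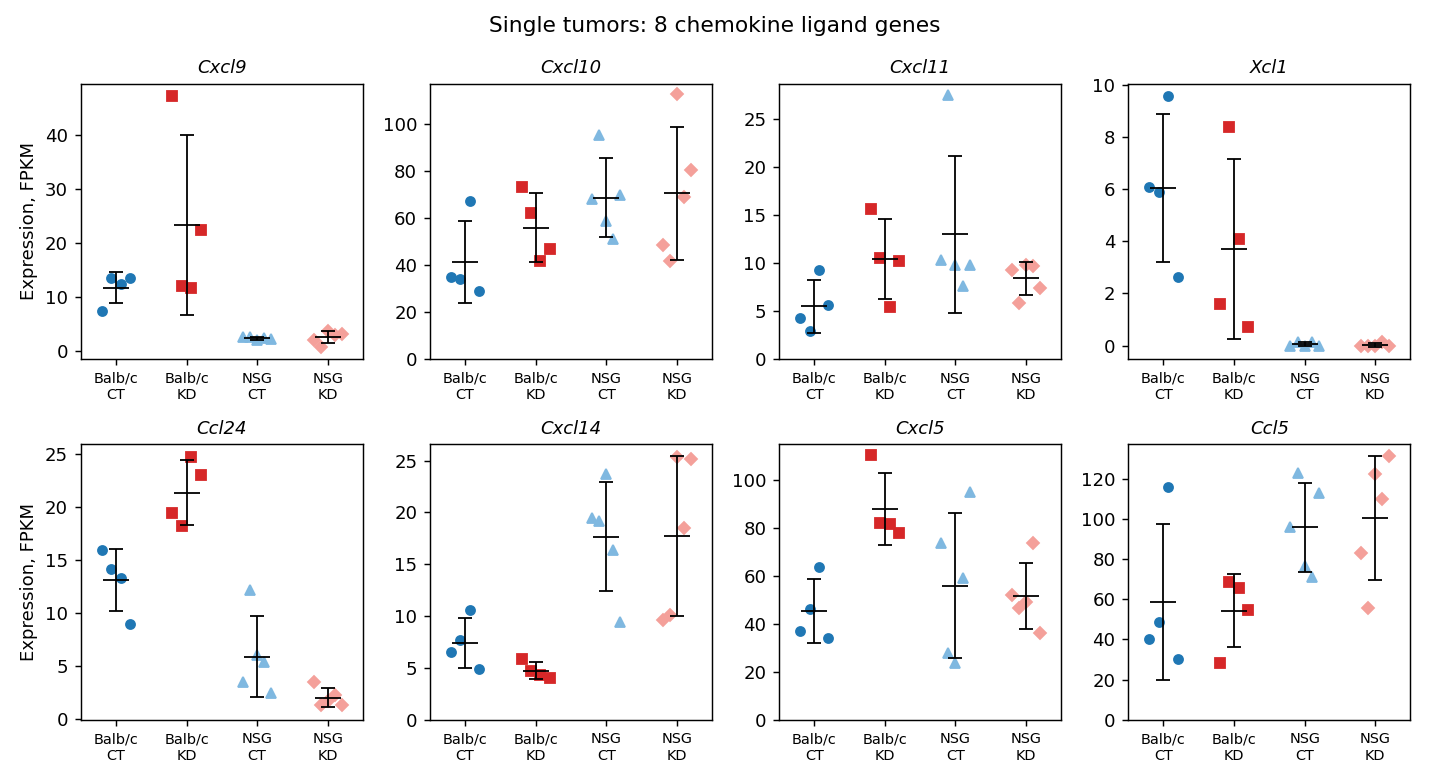
FPKM (y axis, linear) of 8 chemokine ligand genes in single tumors, by group on the x axis (CT, ATRXCT, and KD, ATRXKD), with the mean and SD in black. Cxcl9 and Xcl1 lie higher in all 8 Balb/c tumors than in all 10 NSG tumors, whereas Cxcl10 and Ccl5 overlap between hosts.

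Some members fell short of a call or of the filter between hosts. Ccl1, a ligand of Ccr8, was above 0 in all 8 Balb/c tumors, at 0.125 to 0.699 FPKM, and listed at 0 in all 10 NSG tumors, but this rests on 0.945 to 4.82 estimated fragments per tumor. It entered the test in ATRXCT tumors only through its level in Balb/c mice, where the fitted log2 difference was 0.54 (SE 0.09), under the fold of a call. Its receptor Ccr8 was likewise listed at 0 in all NSG tumors and at 0.165 to 0.867 FPKM in Balb/c tumors. The opposite was seen for Ccl20 and Ccl19, which were listed at 0 in all 8 Balb/c tumors and above 0 in 8 and 7 of the 10 NSG tumors, at no more than 0.394 FPKM. Ccl20, lower without overlap between hosts in ATRXCT tumors, entered that test only through its level in NSG mice. Parts of Ccl19 (45.3% of 75-nt windows) occur in other genes of the annotation, so its level is uncertain.

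Ccl5, a T cell and monocyte attractant that T and NK cells also make, was not higher where those cells were present. It stood at 30.0, 40.2, 48.5 and 116 FPKM in Balb/c ATRXCT tumors and at 71.2, 76.5, 95.8, 113 and 123 FPKM in NSG ATRXCT tumors, and the groups overlapped only through Balb/c tumor 44. The log2 difference was -0.86 (SE 0.34, limma adjusted p = 0.205), and without tumor 44 it was -1.25 and called (limma adjusted p = 0.0108). In ATRXKD tumors the log2 difference was -0.89 (SE 0.30, limma adjusted p = 0.165). Cxcl5, a neutrophil attractant, passed the adjusted threshold without the fold in ATRXKD tumors (log2 difference 0.78, SE 0.19, limma adjusted p = 0.0487), with 77.9 to 111 FPKM in Balb/c and 36.2 to 73.5 FPKM in NSG mice and no overlap. The 8 neutrophil markers summed to 208 to 377 FPKM in those Balb/c and 50.1 to 143 FPKM in those NSG tumors, and their part in the result was not tested.

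The receptors give the other side of the same system. Of 24 receptor genes, 18 were tested in ATRXCT tumors and 20 in ATRXKD tumors. Cxcr6, the receptor of Cxcl16 on T and NK cells, was called higher in Balb/c mice in both comparisons, which it entered only through its level in Balb/c tumors. Cxcr6 was at 2.01 to 9.38 FPKM in Balb/c and at most 0.136 FPKM in NSG tumors (log2 differences 2.67 and 2.58, SE 0.25 and 0.26, limma adjusted p = 0.0001 and 0.000281). Its ligand Cxcl16 did not separate by host, with log2 differences of -0.09 (SE 0.15, limma adjusted p = 0.73) and 0.09 (SE 0.20, limma adjusted p = 0.858). Cxcr3 was at 1.45 to 3.25 FPKM in Balb/c and 0.881 to 1.75 FPKM in NSG tumors, with log2 differences of 0.48 (SE 0.17, limma adjusted p = 0.174) and 0.71 (SE 0.13, limma adjusted p = 0.0118), both under a fold of 2.

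The comparison of ATRXKD with ATRXCT tumors asks whether the ligands differed with the knock-down, which cannot be told apart from cage. In Balb/c mice 0 of the 27 members tested were called by limma, against 0.0068% of all genes tested. At an unadjusted p under 0.05 there were 4 lower and 3 higher members, or 7 of 27, against 4.14% of all genes (2.42% lower and 1.72% higher). The groups did not overlap for 2 lower and 2 higher members, against 3.18% of all genes (1.93% lower and 1.25% higher). The median log2 difference was 0.0079 over the members and -0.0032 over all genes. The 95% intervals of the abundant ligands were wide, from -1.03 to 0.61 for Ccl2 and from -1.40 to 0.92 for Ccl7, so a fold of 2 downward lies within both.

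The members with non-overlapping groups in Balb/c mice were Cxcl5, Ccl24, Cxcl16 and Ccl17. Cxcl5 stood at 34.3, 37.0, 46.3 and 63.7 FPKM in ATRXCT and at 77.9, 81.5, 82.0 and 111 FPKM in ATRXKD tumors (log2 difference 0.97, SE 0.21, limma adjusted p = 0.413). Ccl24 stood at 8.98 to 16.0 FPKM in ATRXCT and 18.2 to 24.7 FPKM in ATRXKD tumors (log2 difference 0.68, SE 0.18, limma adjusted p = 0.626). Cxcl16, which exists as a membrane-bound and a shed form, stood at 36.2, 36.5, 37.4 and 49.8 FPKM in ATRXCT and at 27.3, 29.4, 29.6 and 30.6 FPKM in ATRXKD tumors (log2 difference -0.43, SE 0.13, limma adjusted p = 0.781), and 15.4% of its 75-nt windows also occur in Zmynd15, which overlaps it on the opposite strand. Ccl17, a Ccr4 ligand of dendritic cells, stood at 2.69, 2.73, 3.95 and 4.52 FPKM and at 1.32, 2.46, 2.51 and 2.59 FPKM (log2 difference -0.47, SE 0.20, limma adjusted p = 0.999). For each of the 4 the exact permutation p was 0.0286, the smallest that 70 arrangements allow, before any adjustment for the number of members.

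The remaining members with an unadjusted p under 0.05 in Balb/c mice overlapped between groups. Cxcl11 gave a log2 difference of 0.83 (SE 0.35, limma adjusted p = 0.999), Cxcl14 of -0.52 (SE 0.21, limma adjusted p = 0.999) and Ccl1 of -0.31 (SE 0.11, limma adjusted p = 0.999). Cxcl9 differed by 0.74 (SE 0.41, limma adjusted p = 0.999) and Cxcl10 by 0.47 (SE 0.27, limma adjusted p = 0.999). Xcl1 lay lower by point estimate (log2 difference -0.78, SE 0.52, limma adjusted p = 0.999), with 95% bounds of -1.95 and 0.38. Across the eosinophil and type 2 attractants 4 of the 5 tested members lay below 0, with Ccl24 the exception, and 0 were called.

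**Figure D4:**
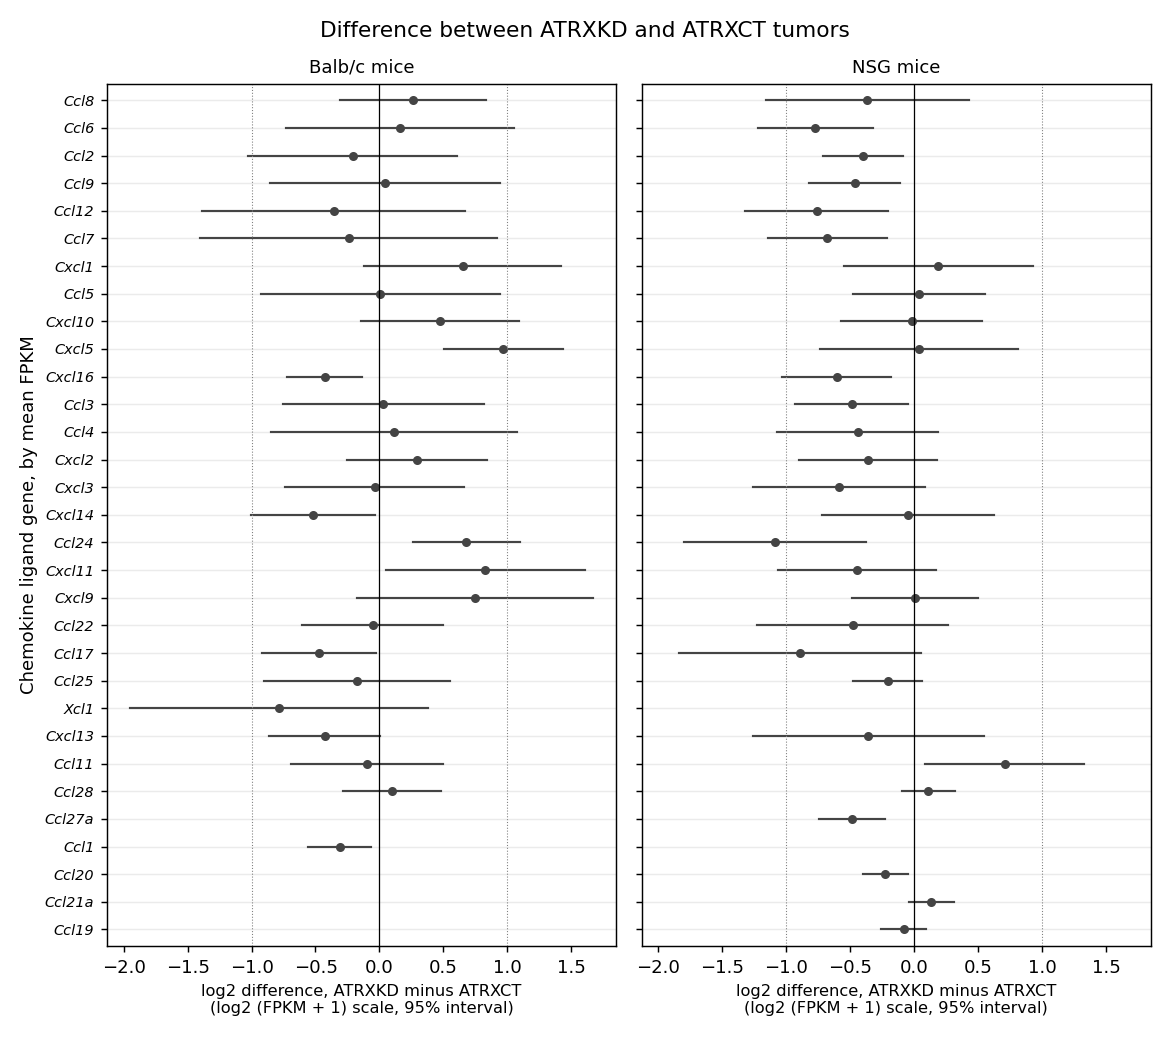
Log2 difference between ATRXKD and ATRXCT tumors on the log2 (FPKM + 1) scale for the members tested in Balb/c mice (left) and NSG mice (right). Points are limma estimates and lines 95% intervals, none was called in either host, and 22 of 29 points lie below 0 in NSG mice.

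Members known to attract mast cells are given together, beside the markers of these cells. In Balb/c mice the summed level of 10 mast cell markers, which include Cpa3, Tpsb2 and Kit, was 189 to 442 FPKM in ATRXCT and 49.9 to 125 FPKM in ATRXKD tumors, without overlap. Of the 10 markers, 7 were lower at an unadjusted p under 0.05 and 0 were called. The 7 mast cell attractants Ccl2, Ccl3, Ccl5, Ccl7, Ccl11, Cxcl1 and Cxcl2 summed to 398 to 1177 FPKM in ATRXCT and 449 to 1055 FPKM in ATRXKD tumors, which overlapped. Of the 7, 0 were called or had an unadjusted p under 0.05 in Balb/c mice, 3 lay below 0 and 4 above, and their median log2 difference was 0.0079. Ccl2 stood at 191, 282, 365 and 458 FPKM in ATRXCT and at 176, 187, 353 and 435 FPKM in ATRXKD tumors (log2 difference -0.21, SE 0.36, limma adjusted p = 0.999). Ccl5 gave a log2 difference of 0.01 (SE 0.41, limma adjusted p = 0.999), and Ccl11 (eotaxin-1) of -0.10 (SE 0.26, limma adjusted p = 0.999) at levels of 0.253 to 2.52 FPKM. In Balb/c mice the sums thus separated the groups for the markers and overlapped for these 7 ligands. Cxcl12, which lies outside the symbol rule, is not among the 7. It was at 152 to 194 FPKM in ATRXCT and 94.6 to 100.1 FPKM in ATRXKD tumors of Balb/c mice, without overlap. The single markers Kit, Hdc and Gata2 overlapped, with Kit at 2.62 to 6.30 FPKM in ATRXCT and 2.05 to 7.47 FPKM in ATRXKD tumors. Ccl2 and Ccl7 were the most abundant of the 7 attractants. Both separated by the slope of the library along transcript length, as given below. In NSG mice all 10 markers lay above 0, with 3 higher at an unadjusted p under 0.05 and 0 called, and of the 7 attractants 3 were lower and 1 higher at that p and 0 called, with median log2 differences of 0.46 and -0.36.

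In Balb/c mice 5 of the 6 most abundant members, all except Ccl8, separated by the slope of the library along transcript length, whereas their shRNA groups overlapped. The share of all genes that separate in this way was not counted. The slope is fitted to expression along transcript length in these same libraries, so shorter transcripts tend to lie lower where it is high. Against a median of 2488 nt over all genes, Ccl12 has 536 nt, Ccl7 801 nt, Ccl2 806 nt and Ccl6 1436 nt. Ccl9, with 3008 nt, is longer. In the 4 tumors with slopes above 0.1 (43, 45, 56 and 60, from both groups), Ccl2 was at 176 to 282 FPKM, against 353 to 458 FPKM in the other 4. Ccl7 was at 98.3 to 161 FPKM against 282 to 365 FPKM, and Ccl12 at 96.5 to 187 FPKM against 302 to 421 FPKM. Ccl6 and Ccl9, both CC ligands of mouse myeloid cells, did not overlap either, at 270 to 561 against 657 to 769 FPKM and at 124 to 236 against 297 to 382 FPKM. Ccl8, the most abundant member, overlapped, at 675 to 981 FPKM against 943 to 1376 FPKM. In NSG mice the 2 tumors with slopes above 0.1 lay within or overlapped the range of the other 8 for the same 5 genes, and Ccl8 was at 418 to 441 FPKM in them against 516 to 1442 FPKM. With the trend along transcript length removed from each library, again no member was called in Balb/c mice, and Ccl2 had a log2 difference of -0.23 (limma adjusted p = 0.999). Whether the slope reflects RNA quality, the makeup of the tumor or library preparation was not tested.

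**Figure D5:**
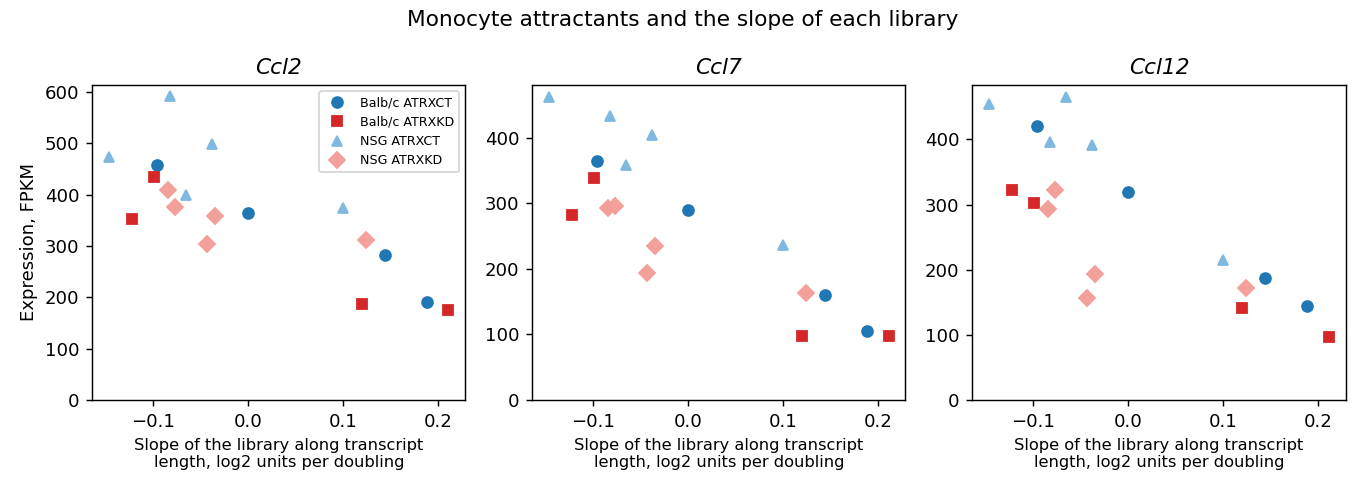
FPKM of Ccl2, Ccl7 and Ccl12 (y axes, linear) against the slope of each library along transcript length (x axis, log2 units per doubling), with 1 point per tumor and colours and shapes for the 4 groups. The 4 Balb/c tumors with slopes above 0.1 lie below the other 4 Balb/c tumors in each panel.

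In NSG mice the ligands lay mostly lower in ATRXKD tumors. Of the 29 members tested 0 were called by limma, against 0.464% of all genes, while 22 lay below 0, and the median log2 difference was -0.36 over the members and -0.0014 over all genes. At an unadjusted p under 0.05 there were 10 lower members and 1 higher, or 11 of 29, against 26.3% of all genes (12.5% lower and 13.8% higher). The groups did not overlap for 2 members, Ccl6 and Ccl20, both lower, against 7.5% of all genes (3.14% lower and 4.36% higher). Ccl6 and Ccl27a had an adjusted p under 0.05 with a fold under 2, whereas Ccl24 passed the fold and missed the adjusted threshold. Ccl20, Ccl27a and Ccl19 entered this comparison only through their level in ATRXCT tumors. Their means there were 0.229, 0.512 and 0.135 FPKM, against 0.0453, 0.0732 and 0.0698 FPKM in ATRXKD tumors. Ccl21a entered it only through its level in ATRXKD tumors, with means of 0.0489 FPKM in ATRXCT and 0.156 FPKM in ATRXKD tumors. The direction of these members thus adds no support to the counts.

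Ccl6 stood at 571, 591, 643, 795 and 843 FPKM in NSG ATRXCT and at 315, 322, 326, 531 and 567 FPKM in NSG ATRXKD tumors, without overlap (log2 difference -0.77, SE 0.20, limma adjusted p = 0.0459). Ccl27a, a skin chemokine, was above 0 in 5 ATRXCT tumors, at 0.199 to 0.771 FPKM, and in 2 of 5 ATRXKD tumors, at 0.113 and 0.253 FPKM (log2 difference -0.48, SE 0.12, limma adjusted p = 0.0346). The lowest value above 0 rests on 2.06 estimated fragments, and 33.3% of its 75-nt windows occur in other genes. By position, Ccl6 overlaps E230016K23Rik and Ccl27a overlaps Il11ra1, both on the opposite strand. Ccl24 stood at 2.39 to 12.2 FPKM and at 1.25 to 3.43 FPKM (log2 difference -1.09, SE 0.32, limma adjusted p = 0.0634), and it was called lower without ATRXCT tumor 5 (-1.30, limma adjusted p = 0.0455) or ATRXKD tumor 26 (-1.24, limma adjusted p = 0.0414).

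All 4 members listed as monocyte attractants lay lower in NSG ATRXKD tumors, and 3 of them had an unadjusted p under 0.05. The log2 differences were -0.40 for Ccl2 (SE 0.14, limma adjusted p = 0.105), -0.68 for Ccl7 (SE 0.21, limma adjusted p = 0.0736), -0.76 for Ccl12 (SE 0.25, limma adjusted p = 0.0866) and -0.36 for Ccl8 (SE 0.36, limma adjusted p = 0.556). Of 10 macrophage and monocyte markers, 7 were lower and 1 higher at an unadjusted p under 0.05, 0 were called, and their summed level was 2096 to 2750 FPKM in ATRXCT and 1321 to 2358 FPKM in ATRXKD tumors. Their part in the values of the ligands was not tested. Lyz2, the lysozyme of myeloid cells, had a log2 difference of -0.97 (SE 0.25, limma adjusted p = 0.04), and Ccr1, a receptor of Ccl6 and Ccl9, of -0.78 (SE 0.21, limma adjusted p = 0.0477). In Balb/c mice the same markers summed to 1713 to 2827 FPKM in ATRXCT and 1397 to 2564 FPKM in ATRXKD tumors.

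Ccl11 was the member with the lowest p among those higher in NSG ATRXKD tumors. It stood at 0.658, 0.844, 0.880, 0.920 and 1.02 FPKM in ATRXCT tumors and at 0.663, 0.853, 2.96, 3.61 and 3.62 FPKM in ATRXKD tumors (log2 difference 0.71, SE 0.28, limma adjusted p = 0.139). Thus 3 of 5 ATRXKD tumors, numbers 28, 29 and 30, lay well above all others, and the remaining ones lay among the ATRXCT tumors. Cxcl9 and Cxcl10 differed by 0.01 (SE 0.22, limma adjusted p = 0.991) and -0.02 (SE 0.25, limma adjusted p = 0.973). Cxcl5 differed by 0.04 (SE 0.35, limma adjusted p = 0.965), and Ccl5 by 0.04 (SE 0.23, limma adjusted p = 0.94). Of the other members above 0, Ccl28 gave 0.11 (SE 0.10, limma adjusted p = 0.493) and Ccl21a, a lymph node chemokine, gave 0.13 (SE 0.08, limma adjusted p = 0.317). Ccl21a entered the test only through its level in ATRXKD tumors, and it shares 61.3% of its 75-nt windows with other genes. Xcl1 and Ccl1 did not pass the filter in NSG mice.

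Whether the knock-down differed between the 2 hosts was tested by an interaction term over all 18 tumors. Of the 28 members tested 0 were called by limma, and 0 of 14803 genes in all, a background of 0%. At an unadjusted p under 0.05 there were 4 higher members and 1 lower, against 10.3% of all genes (4.45% higher and 5.86% lower). Ccl24 had the smallest p, with a difference of the knock-down effect, Balb/c minus NSG, of 1.77 log2 units (SE 0.43, unadjusted p = 0.000634, limma adjusted p = 0.188). It lay higher with the knock-down in Balb/c and lower in NSG mice by point estimate. The others were Cxcl11 (1.28, SE 0.47, limma adjusted p = 0.383), Ccl6 (0.93, SE 0.44, limma adjusted p = 0.48), Ccl27a (0.35, SE 0.16, limma adjusted p = 0.452) and Ccl1 (-0.31, SE 0.10, limma adjusted p = 0.358), of which Ccl1 could only differ in Balb/c mice. With weights for each library and a robust prior, 4 members were called, Ccl24, Cxcl5 and Ccl6 higher and Ccl11 lower. The share of all genes called under that setting was not counted, so this number cannot be set against a background.

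Ligands outside the symbol rule were read beside the members. Pf4 (CXCL4), Ppbp (CXCL7), Cx3cl1 and Cxcl12 were tested in every comparison and none was called. Cxcl12, which stromal cells make to retain leukocytes through Cxcr4, did not overlap in Balb/c mice, at 152 to 194 FPKM in ATRXCT and 94.6 to 100.1 FPKM in ATRXKD tumors (log2 difference -0.79, SE 0.13, limma adjusted p = 0.262). Pf4, a product of platelets that macrophages can also make, lay lower in NSG ATRXKD than ATRXCT tumors (log2 difference -0.80, SE 0.21, limma adjusted p = 0.0445), and Cx3cl1 higher (0.85, SE 0.15, limma adjusted p = 0.0148), both under a fold of 2. Lymphoid homing ligands were scarce. Cxcl13, which draws B cells through Cxcr5, was at 0.0510 to 1.42 FPKM in Balb/c and 0.593 to 7.12 FPKM in NSG tumors, and its host differences were -0.82 (SE 0.39, limma adjusted p = 0.279) and -0.89 (SE 0.29, limma adjusted p = 0.151). Ccl19 and Ccl21a never exceeded 0.384 FPKM. Ccl26, Ccl27b, Cxcl15 and Cxcl17 were tested in no comparison, with at most 0.424, 0.224, 0.322 and 0.272 FPKM.

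The remaining members were called in no comparison. Ccl3 and Ccl4, made by activated myeloid and T cells, ranged from 17.6 to 62.8 FPKM and from 12.0 to 63.8 FPKM, and Ccl3 differed by 0.70 (SE 0.19, limma adjusted p = 0.0773) between hosts in ATRXKD tumors. The neutrophil attractants Cxcl1, Cxcl2 and Cxcl3 ranged from 38.6 to 150 FPKM, from 11.4 to 32.4 FPKM and from 6.64 to 28.7 FPKM. Their receptor Cxcr2 was at 1.66 to 4.44 FPKM. Ccl22, which like Ccl17 binds Ccr4, ranged from 1.37 to 8.08 FPKM, the gut-homing ligand Ccl25 from 1.44 to 6.27 FPKM and the mucosal ligand Ccl28 from 0.163 to 1.04 FPKM, with limma adjusted p from 0.305 upward in all comparisons.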

How the data were processed

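RNA from 18 tumors was sequenced as stranded, ribosomal-depleted, paired 75-nt libraries. The authors aligned reads to mm10 with STAR 2.6.0c and computed FPKM with Cufflinks 2.2.1, and the deposited matrix holds log2 (FPKM + 1) values for 20878 genes and 92 spike-ins. Whether counting used strand is not given in the sources used here. Values were not whole fragments (35.1 to 42.4% lay within 0.1 of a whole number, against 20% by chance), so no count test was made, and depth is an estimate.

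FPKM are these values back-transformed. Groups came from the sample labels. The 5 comparisons (knock-down in each host, host in each shRNA group and their interaction) were fitted with limma 3.58.1 in R 4.3.3 (trended prior) on log2 (FPKM + 1), with a pseudocount of 1, keeping genes whose mean FPKM in the tumors compared reached 0.1, with Benjamini-Hochberg adjustment over all genes tested. The same step was tested on simulated data. Single values used exact two-sided permutation tests over tumors. Tumors came from separate mice, and the labels do not say whether they came from 1 or several cell preparations, so p-values measure the spread between these mice. Shared sequence was counted in 75-nt windows of GENCODE transcripts. Figures used Python 3.11.15 and matplotlib 3.10.9.

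Every member is named or counted. Full statistics are given for members called in any comparison, for the 3 with the smallest p in each direction of each knock-down comparison, and for Ccl2, Ccl5, Ccl11, Cxcl9, Cxcl10 and Xcl1. The members, the lists and the tests were chosen with earlier results of these data known. The 8 alternatives beside leaving out each tumor changed the pseudocount, the filter, the scaling, the library weights, the length trend, the fold threshold or the tumors fitted. Results for some genes of the lists are not reported here.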

Additional observations from a re-analysis of the deposited data

Results flagged for a closer look

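In 10 of 110 combinations of member and group, 1 tumor lay farther from the others than Dixon's 95% limit allows, where chance gives about 1 in 20, or 5.5. All values here are log2 (FPKM + 1). In Balb/c ATRXCT tumors these were Cxcl9 in tumor 41, at 3.07 against 3.74 to 3.86 in the others, and Cxcl16 in tumor 44, at 5.67 against 5.22 to 5.26. In Balb/c ATRXKD tumors they were Cxcl5 in tumor 56, at 6.80 against 6.30 to 6.37, Ccl17 in the same tumor, at 1.22 against 1.79 to 1.84, Ccl1 in tumor 58, at 0.37 against 0.17 to 0.20, and Ccl27a in tumor 60, at 0.21 with the others listed at 0. In NSG ATRXCT tumors they were Ccl12 in tumor 3, at 7.75 against 8.61 to 8.86, Ccl4 in the same tumor, at 4.15 against 5.21 to 5.53, and Cxcl11 in tumor 2, at 4.83 against 3.10 to 3.49. In NSG ATRXKD tumors Xcl1 in tumor 29 was at 0.19 with the others listed at 0.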

How the results depend on the processing

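No alternative turned the direction of a called member, and in Balb/c mice the knock-down called 0 members under every alternative run. Over 7 values of called members and 112 values under alternatives, 97 kept their call and 15 lost it, all of them for Cxcl14 between hosts in ATRXCT tumors and Xcl1 between hosts in ATRXKD tumors, including without a filter on low values (limma adjusted p = 0.0736 and 0.054). The knock-down in NSG mice called 1 member with a pseudocount of 0.1 (Ccl27a), 3 with library weights (Ccl12 and Ccl17 lower, Ccl11 higher), 2 without a fold threshold and 1 in a fit of all 4 groups (Ccl24), and 0 to 1 when 1 tumor at a time was left out. The host comparison of ATRXCT tumors called 5 members with a pseudocount of 0.1, 6 with library weights and 2 to 5 when 1 tumor was left out, the most without Balb/c tumor 44. The host comparison of ATRXKD tumors called 3 to 4 when 1 tumor was left out. The interaction called 4 members with library weights, and Ccl24 there had limma adjusted p from 0.0264 to 0.369 over all settings. The causes were not tested. The share of all genes called was not counted under the alternatives, so these numbers of members cannot be set against a background. No paired analysis was possible because the groups share no mouse numbers. With 4 or 5 tumors per group and wide intervals in Balb/c mice, members without a call may still differ, and Ccl1, Ccl19 and Ccl20 rest on a few estimated fragments.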
